A study of Mus musculus with 9 samples.

Results

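The chromatin of 10 genes of the SRF and YAP pathways was examined in primary oviductal muscle cells of WT mice. The genes were Srf, Myocd, Yap1, Wwtr1, Tead1, Tead2, Tead3, Tead4, Lats2 and Amotl2, named by their place in these pathways at a time when earlier results of these data were known. The rule that picked their peaks used positions only. They are 10 of the 21853 protein-coding genes of the annotation. Each gene was taken with its body and 50 kb on either side, on build GRCm38 of the mouse genome with GENCODE gene models. Every peak that overlapped this interval was classed as promoter (within 1 kb of the start of a protein-coding transcript of the gene), intragenic or flanking. Each of the 10 genes had peaks of both marks in this wide interval, and the share of all genes that do was not computed.

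The cells came from the oviducts of female mice aged 8 to 12 weeks at day 2 of pregnancy after mating with a stud male. Per the labels the oviducts were digested with enzymes and filtered, and the cells were plated for some hours without a sort before 50000 fixed cells entered each library. ChIC-Seq was run with antibodies to H3K27ac and H3K4me1 and with IgG, on 3 samples each, all labelled WT. In ChIC-Seq an antibody carries MNase fused to protein A to its mark, and the DNA cut there is sequenced. Each H3K27ac and H3K4me1 sample gave 1 peak list and each mark 1 pooled list, so that 8 lists were used, and the IgG libraries served as the controls of the peak calls. Nothing in the labels says that replicates came from separate mice, so the p-values measure only the spread between these samples. In such bulk samples a mark on fewer cells and a weaker mark on each cell cannot be told apart.

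SRF is a transcription factor that binds CArG boxes and drives genes of the actin cytoskeleton and of contraction. Myocardin, the product of Myocd, is its coactivator in smooth and cardiac muscle. YAP (Yap1) and TAZ (Wwtr1) are coactivators that cannot bind DNA on their own and act mainly through the TEAD factors (Tead1 to Tead4), which recognise the sequence GGAATG. LATS kinases of the Hippo pathway phosphorylate YAP and TAZ and keep them out of the nucleus, and angiomotin-like proteins such as AMOTL2 hold them in the cytoplasm. H3K27ac is found at active promoters and enhancers. H3K4me1 is found at enhancers, active or not, and along the flanks of active promoters.

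The sequences just upstream of 4 starts are shown because H3K27ac ran from whole to little coverage there, and because the binding sites of the 2 factor families can be read in some of them. They are the 250 bases before the 5′-most start, on the strand of the gene, and hold 0 bases of annotated exon. The capitals mark CArG boxes in Srf and the hexamer GGAATG, on either strand, in the other genes. The windows lie at chr17:46556176-46556425 (Srf, minus strand), chr3:57575911-57576160 (Wwtr1, minus), chr17:28350818-28351067 (Tead3, minus) and chr11:65269990-65270239 (Myocd, minus).
Srf: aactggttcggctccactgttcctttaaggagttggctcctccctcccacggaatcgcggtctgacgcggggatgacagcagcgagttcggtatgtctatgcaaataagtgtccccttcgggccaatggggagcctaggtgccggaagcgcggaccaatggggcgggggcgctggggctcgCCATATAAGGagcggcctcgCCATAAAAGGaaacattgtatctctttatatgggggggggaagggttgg
Wwtr1: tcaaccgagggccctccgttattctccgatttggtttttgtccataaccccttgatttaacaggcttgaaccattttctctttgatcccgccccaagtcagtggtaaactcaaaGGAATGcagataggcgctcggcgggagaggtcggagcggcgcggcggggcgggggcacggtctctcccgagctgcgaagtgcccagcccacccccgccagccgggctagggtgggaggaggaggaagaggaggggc
Tead3: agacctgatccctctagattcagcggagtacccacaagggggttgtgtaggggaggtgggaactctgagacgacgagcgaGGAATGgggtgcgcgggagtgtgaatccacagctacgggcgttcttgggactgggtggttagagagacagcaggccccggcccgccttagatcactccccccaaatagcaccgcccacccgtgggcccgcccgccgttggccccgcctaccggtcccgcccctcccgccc
Myocd: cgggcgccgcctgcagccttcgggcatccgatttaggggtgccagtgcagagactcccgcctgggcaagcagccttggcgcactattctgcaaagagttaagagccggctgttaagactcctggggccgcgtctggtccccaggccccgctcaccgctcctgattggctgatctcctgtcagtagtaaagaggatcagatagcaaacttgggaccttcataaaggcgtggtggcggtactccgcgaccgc

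The Srf window held CArG boxes that began 69 and 49 bases before the start. H3K27ac peaks covered 75.2%, 100% and 100% of this window in replicates 1, 2 and 3. A CArG box was in 1.18% of the 54361 windows of 250 bases before protein-coding starts. Among the 10 genes it was before a start of Srf and of Tead2, against 2.28% of 21829 gene symbols with it before any of their starts. The TEAD hexamer began 136 bases before the Wwtr1 start and 170 before that of Tead3, and both windows were covered whole by H3K27ac in every replicate and not at all by H3K4me1. It was before a start in 7 of the 10 genes, against 19.3% of gene symbols, and in 15 of their 52 windows, many of which overlap one another, against 11.1% of all windows. A gene with more starts has more windows in which a motif can fall, and the shares per gene are not adjusted for this. The 10 genes had 52 windows, where all 21853 protein-coding genes had 54361. The AP-1 motif TGANTCA was in 2 of the 52 windows, one of Tead2 and one of Amotl2, and in 5.69% of all windows. The Myocd window held none of the 3 motifs. Its H3K27ac coverage was 0%, 0% and 39.2%, and its H3K4me1 coverage was 0%, 0% and 100%. None of the motif matches in the printed windows overlapped another. These are matches of letters and not measured binding sites.

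The H3K27ac calls used 40551842 to 42040809 ChIC fragments, and the H3K4me1 calls 41891318, 78891920 and 64063996 in replicates 1, 2 and 3, against 3110985 to 3713369 IgG fragments. Depth thus differed between the marks, and its part in the differences between them was not tested. The lists held 93684 to 152889 peaks with a median fold enrichment of 1.43 to 1.62 in the authors' calls. Of these peaks 11.1% to 19.0% reached 1.3 on the −log10 scale of the p-value, a cutoff called the p-value filter from here on. H3K27ac replicate 1 covered 145 Mb of the genome, against 102 and 91.0 Mb in replicates 2 and 3, and the H3K4me1 lists covered 130 to 138 Mb. H3K27ac replicate 1 was called against IgG 1, H3K27ac replicate 2 and H3K4me1 replicates 1 and 2 against IgG 2, and replicate 3 of both marks against IgG 3. Differences between lists that share an IgG library are therefore given beside the main ones. The labelled cell type was checked against marker genes. Of 6 smooth muscle markers, Acta2, Des and Smtn had a promoter peak in all 6 replicate lists, whereas Myh11, singled out after its values were seen, had one in 0 H3K27ac lists and 1 H3K4me1 list. The rest of this list, named for completeness, were Tagln (2 H3K27ac and 3 H3K4me1 lists) and Cnn1 (1 and 2). Thus 3 of the 6 had H3K27ac in all 3 lists. Of all genes 45.9% had H3K27ac in all 3 lists and 24.3% had peaks in all 6. Of 5 fibroblast markers, Col1a1, Col3a1, Dcn and Lum had a promoter peak in all 6 lists, and all 5 had one in every H3K27ac list. None of 7 epithelial, 4 endothelial and 2 mesothelial markers had a promoter peak in all 3 H3K27ac lists, and 1 of 4 blood cell markers did (Ptprc, singled out after its values were seen). No replicate list carried a peak at the promoters of Epcam, Pax8, Csf1r, Cd3e, Cd79a, Msln and Upk3b. The other markers of these cell types had one in 1 list or more, among them Krt8 (1 H3K27ac and 3 H3K4me1 lists), Ovgp1 (1 and 2) and Tek (2 and 2), singled out after their values were seen. The median share of the locus covered by H3K27ac was 6.37% over the smooth muscle markers and 25.0% over the fibroblast markers, against 6.56% over the endothelial, 6.96% over the blood cell, 3.31% over the epithelial and 2.58% over the mesothelial markers. The part of fibroblasts in the values below was not tested.

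The first question was which of the 10 genes carry the marks of active promoters. H3K27ac was at the promoters of Srf, Yap1, Wwtr1, Tead1, Tead2, Tead3, Lats2 and Amotl2 in all 3 replicates, and Myocd and Tead4 had it in 1 replicate each. The count was thus 8 of 10 genes, where 45.9% of all protein-coding genes had such a promoter. H3K4me1 was within 1 kb of a start in all 3 replicates for 6 genes, against 27.9% of all genes. In all 6 lists there were 5 (Srf, Yap1, Tead1, Lats2 and Amotl2), against 24.3%. None of the 10 genes was without a promoter peak in all of the 6 lists, as 32.8% of genes were. These shares per gene are not adjusted for the number of starts, and a gene with more starts has more windows for a peak. Starts with overlapping windows form 22 groups in the 10 genes and 30934 in all genes. H3K27ac in all 3 replicates reached 9 of the 22 groups, against 35% of all groups, and H3K4me1 reached 6, against 21.7%. No peak in any of the 6 lists was found at 5 groups, against 40.7%. Tead2 had H3K27ac in 3 lists and H3K4me1 in 0, a pattern of 4.19% of genes. In the pooled lists 9 of the 10 had an H3K27ac promoter peak (all but Myocd; 56.2% of genes) and 9 an H3K4me1 promoter peak (all but Tead2; 56.3%). With the p-value filter the count in all 3 replicates was 7 for H3K27ac, 1 for H3K4me1 and 1 for both marks, against 30.2%, 5.03% and 3.98% of all genes under the same filter.

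How much of the promoter windows each mark covered was then compared. The median of the 10 genes was 39.6% for H3K27ac and 11.0% for H3K4me1, against 15.6% and 4.47% over all genes. Each H3K27ac list was above each H3K4me1 list for 6 genes (Srf, Wwtr1, Tead2, Tead3, Lats2 and Amotl2), where 26.2% of all genes were so ordered. The opposite order was met by 0 of the 10 and by 1.71% of all genes. For these 6 genes the exact permutation test of 3 lists against 3 gave p = 0.1, the smallest it can give, and p = 0.358 after Benjamini-Hochberg adjustment over the 21853 genes. No single gene can pass 0.05 in this design.

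**Figure D1:**
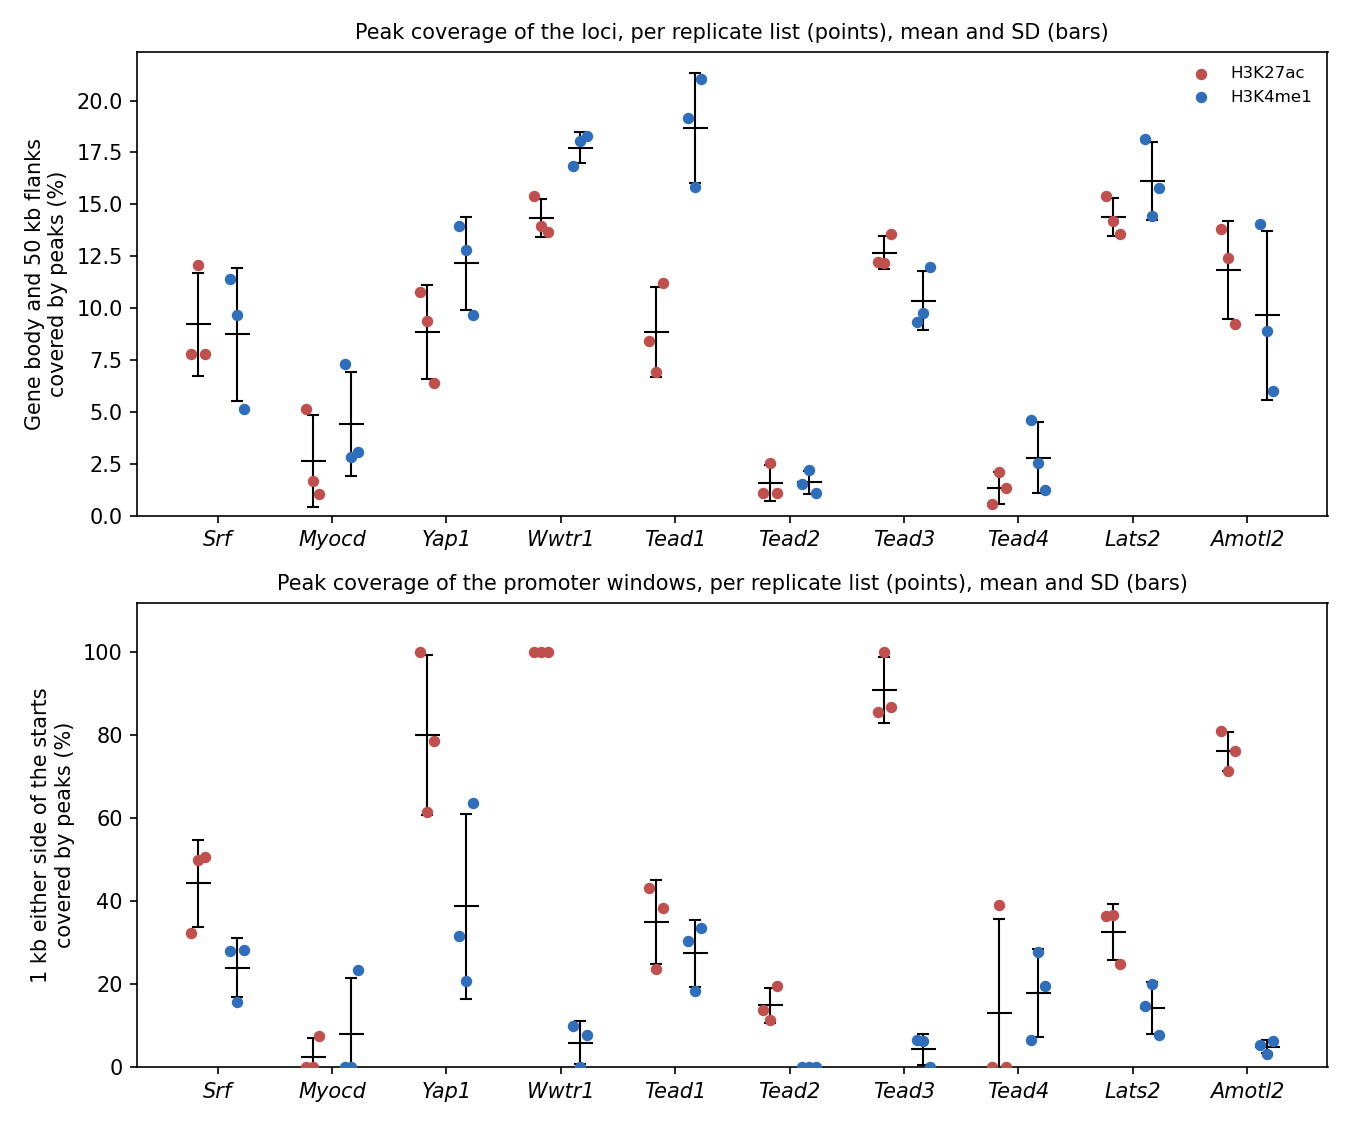
Percent of bp covered by peaks at each of the 10 genes, over the gene body with 50 kb on either side (top) and over 1 kb either side of the starts (bottom). Each point is 1 replicate list, red for H3K27ac and blue for H3K4me1, and black bars are the mean and SD (n = 3). The marks part most over the Tead1 locus, where the H3K4me1 points at 15.8% to 21.0% are above the H3K27ac points at 6.95% to 11.2%, and at the Wwtr1 and Tead3 promoters.

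Of the SRF pair, Srf was marked and Myocd hardly so. Srf lies at chr17:46548329-46556175 on the minus strand, and H3K27ac covered 64.5%, 100% and 100% of the window around its 5′-most start in replicates 1, 2 and 3. The H3K4me1 lists covered 24.5%, 31.5% and 42.5% of the same window. No H3K27ac list was as low as an H3K4me1 list there. An H3K27ac peak ran from -2192 to 4063 bp of the start in replicate 2 and from -1792 to 4177 bp in replicate 3. In replicate 1 the peak ended 63 bp short of the start and another followed. The H3K4me1 peaks ended 510, 370 and 94 bp short of the start, so that none of them covered it. The 4 kb of promoter windows of Srf were covered to 44.3% ± 10.4 (SD, n = 3) by H3K27ac and 24.0% ± 7.11 (SD, n = 3) by H3K4me1. At the internal start of the second window H3K27ac covered 0%, 0% and 1.10% and H3K4me1 covered 31.3%, 0% and 13.9%. Between lists called against IgG 2 and IgG 3 the marks differed by 28.2 and 22.3 percentage points.

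Myocd, on the minus strand at chr11:65176561-65269989, has 3 groups of starts, and the 2 internal groups had no peak in any list. At the 5′-most group only replicate 3 of each mark had a peak, over 22.3% of the window for H3K27ac and 69.4% for H3K4me1, and these 2 lists share IgG 3. The H3K27ac peak was 456 bp long, with a fold enrichment of 1.62 at percentile 69.5 of its list, and the H3K4me1 peak of 1644 bp was at percentile 28.9. The pooled H3K27ac list had no peak there and the pooled H3K4me1 list covered 54.2% of the window. Over the Myocd locus the H3K27ac lists covered 5.16%, 1.68% and 1.05%, and the H3K4me1 lists 7.28%, 2.81% and 3.09%. The first replicate was highest in both marks and the groups overlapped. The means of 2.63% ± 2.22 and 4.39% ± 2.51 (SD, n = 3) were at percentiles 33.8 and 49.6 of all genes. Within the gene body away from the starts, H3K27ac covered at most 2.05% and H3K4me1 3.23% to 6.26%.

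**Figure D2:**
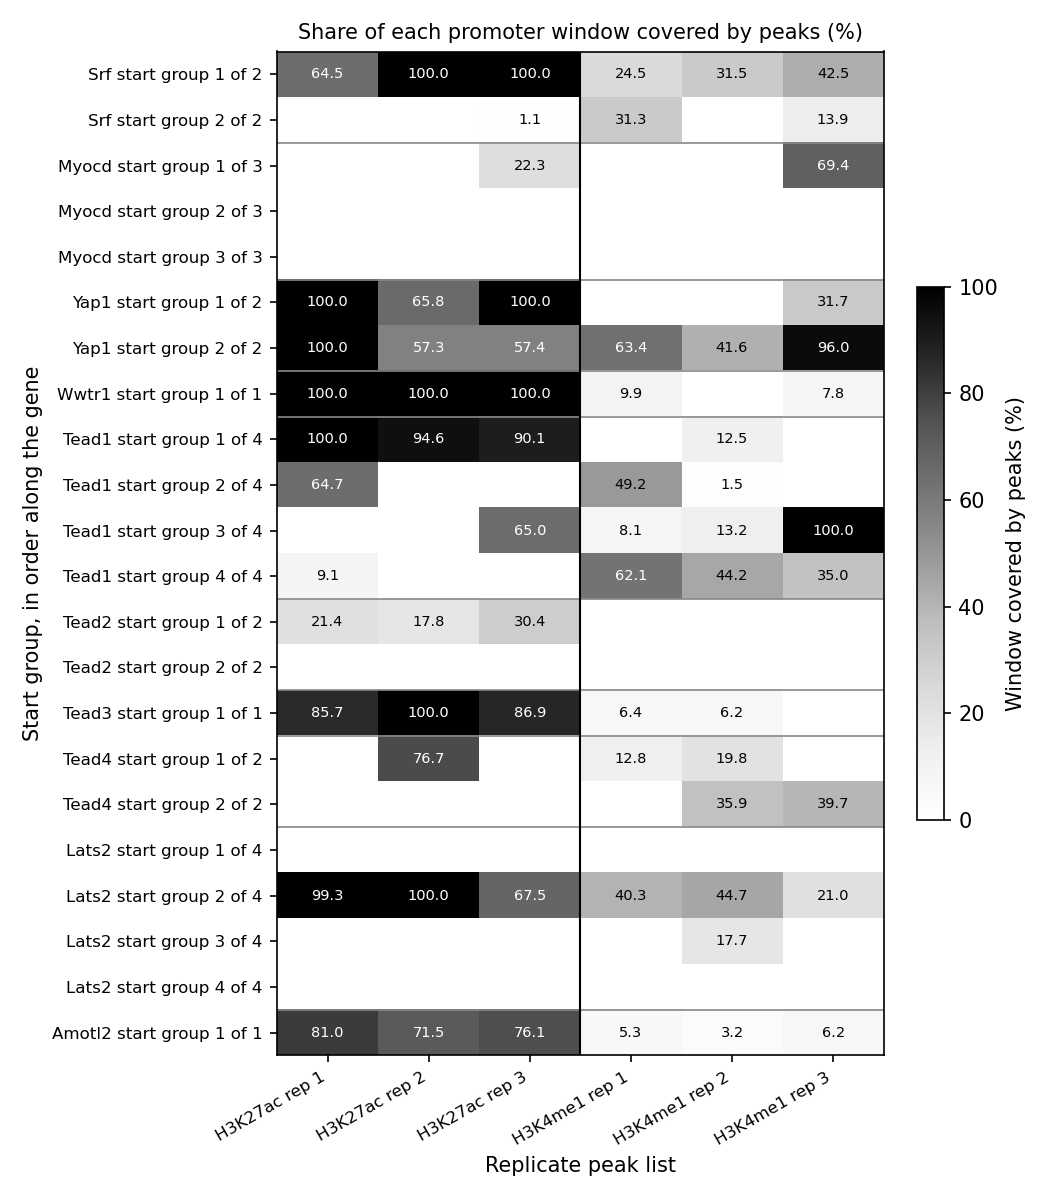
Percent of each promoter window covered by peaks in the 6 replicate lists (columns), for the 22 groups of starts of the 10 genes (rows, in the order in which the gene is transcribed). A group joins starts whose windows of 1 kb on either side overlap, and empty cells are 0. H3K27ac peaks of all 3 replicates reach 9 groups and H3K4me1 peaks of all 3 replicates reach 6, and 5 groups have no peak in any of the 6 lists; over the 30934 start groups of all genes these shares are 35%, 21.7% and 40.7%.

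Both coactivator genes, Yap1 and Wwtr1, had broad H3K27ac across the start. Wwtr1, which encodes TAZ, lies on the minus strand at chr3:57455649-57575910 and has a single group of starts. H3K27ac covered 100% of its promoter window in each of the 3 replicates. H3K4me1 covered 9.89%, 0% and 7.78%. The mean difference of 94.1 percentage points was the largest of the 10 genes, and was 95.1 and 92.2 between lists sharing IgG 2 and IgG 3. In the pooled lists, an alternative chosen after seeing the data, it was 56.2 at Wwtr1 and 77.2 at Tead3. With windows of 3 kb it was 51.3 at Wwtr1 and 38.2 at Tead3. The H3K27ac peaks were 3806 to 5449 bp long, had pileups 16.6 to 17.8 times the genome mean and stood at percentiles 98.9 to 99.6 of their lists by fold enrichment. Their fold enrichment was 2.34 to 2.54. After scaling to the IgG depth that genome mean was only 0.263, 0.225 and 0.219 in H3K27ac replicates 1, 2 and 3. The lowest pileup of any peak in these lists was 4.03, 4.80 and 4.88 times the mean. In all 3 H3K4me1 lists a peak lay 2 kb downstream of the start and none covered the start itself.

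Yap1 lies on the minus strand at chr9:7931999-8004596 and has 2 groups of starts. At the first, H3K27ac covered 100%, 65.8% and 100% of the window and H3K4me1 covered 0%, 0% and 31.7%. At the second, inside the gene, H3K27ac covered 100%, 57.3% and 57.4%, and H3K4me1 covered 63.4%, 41.6% and 96.0%. The H3K4me1 promoter calls of Yap1 in replicates 1 and 2 thus came from the internal start only. Over both windows the marks overlapped, at 80.1% ± 19.3 for H3K27ac and 38.7% ± 22.4 for H3K4me1 (SD, n = 3; exact permutation p = 0.2). The H3K27ac peaks across the first start were 3351 to 6574 bp long and at percentiles 93.9 to 96.7 of their lists.

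The 4 TEAD genes differed from one another. Tead1 and Tead3 had H3K27ac across the 5′-most start in every replicate, Tead2 had a short peak just downstream of it and Tead4 had a peak there in replicate 2 only. Tead3, on the minus strand at chr17:28331671-28350817, had 85.7%, 100% and 86.9% of its promoter window under H3K27ac and 6.39%, 6.23% and 0% under H3K4me1. The difference was 86.7 percentage points, and 93.7 and 86.9 between lists sharing an IgG library. Its start peaks were 4085 to 7322 bp long. Tead2, on the plus strand at chr7:45215753-45233644, had H3K27ac peaks of 635 to 1085 bp that began 329, 101 and 86 bp after the 5′-most start, at percentiles 81.0 to 90.6. They covered 21.4%, 17.8% and 30.4% of the first window, while no H3K4me1 list, pooled or replicate, had a peak in either window.

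Tead1, on the plus strand at chr7:112679318-112906807, has 4 groups of starts, and the marks were distributed unequally over them. At the first, H3K27ac covered 100%, 94.6% and 90.1% of the window and H3K4me1 covered 0%, 12.5% and 0%. The second window was covered 64.7%, 0% and 0% by H3K27ac and 49.2%, 1.50% and 0% by H3K4me1, so that both rested mainly on replicate 1. The third window was covered 0%, 0% and 65.0% by H3K27ac and 8.10%, 13.2% and 100% by H3K4me1. The last, farthest downstream, had 9.06%, 0% and 0% under H3K27ac and 62.1%, 44.2% and 35.0% under H3K4me1. The first window was thus higher in each H3K27ac list than in any H3K4me1 list, and the last was lower. H3K4me1 promoter peaks of Tead1 in all 3 replicates were found at the third and last groups and not at the first. Averaged over its 4 windows Tead1 did not separate the marks, at 35.0% ± 10.2 and 27.4% ± 8.06 (SD, n = 3; exact permutation p = 0.4), while the pooled lists covered 36.9% and 84.2%.

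At Tead4, on the minus strand at chr6:128224288-128300823, H3K27ac covered 0%, 76.7% and 0% of the first window. H3K4me1 covered 12.8%, 19.8% and 0% of that window and 0%, 35.9% and 39.7% of the window of an internal start, which no H3K27ac list reached. The 3 H3K4me1 promoter calls of Tead4 therefore came from different starts. The H3K27ac call rests on replicate 2, a peak of 1601 bp at percentile 80.2. The mean difference over both windows was -4.84 percentage points and turned to 1.69 without H3K27ac replicate 1 or 3, and to 0.0530 without H3K4me1 replicate 2.

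The genes of the inhibitors, Lats2 and Amotl2, had H3K27ac in all 3 replicates at 1 group of starts each. Lats2, which encodes a kinase that phosphorylates YAP and TAZ, lies on the minus strand at chr14:57689662-57758388 and has 4 groups of starts. Its 5′-most start and its last group had no peak within 1 kb in any replicate list. At the second group H3K27ac covered 99.3%, 100% and 67.5%, and H3K4me1 covered 40.3%, 44.7% and 21.0%. The H3K27ac lists were all above the H3K4me1 lists. The third group had H3K4me1 over 17.7% of its window in replicate 2 and over 70.6% in the pooled list, and no H3K27ac. Over all windows the marks had 32.6% ± 6.80 and 14.2% ± 6.22 (SD, n = 3), and the difference was 19.2 and 17.0 percentage points between lists sharing an IgG library. In the pooled lists the order was the other way, at 36.6% and 38.8%. The start of the second group used in the plot of coverage around starts was chosen after its values were seen.

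Amotl2, on the plus strand at chr9:102716672-102733418, has 9 starts in 1 group. H3K27ac covered 81.0%, 71.5% and 76.1% of the joined windows and H3K4me1 covered 5.27%, 3.21% and 6.25%. The 3 H3K27ac peaks were 5265 to 6004 bp long and began 69, 600 and 341 bp after the 5′-most start. Their pileups were 16.1 to 17.2 times the genome mean, at percentiles 96.8 to 98.4 of their lists. The nearest H3K4me1 peaks to that start were 4320, 4436 and 3063 bp away in the replicates, whereas the pooled H3K4me1 list had a peak of 1537 bp across it.

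Over the 5′-most starts of the 10 genes H3K27ac was found more often than H3K4me1, on the start and downstream of it. Of the 30 pairs of a gene and a replicate list, H3K27ac covered the start in 16 (53.3%) and H3K4me1 in 1 (3.33%), the latter at Myocd. At 1 kb downstream the shares were 66.7% and 3.33%. No H3K27ac list covered the 5′-most start of Tead2, Lats2 or Amotl2. At 2 kb downstream H3K27ac covered 63.3% of the pairs and H3K4me1 covered 40.0%, and at 2 kb upstream the shares were 16.7% and 10.0%. Over the 5′-most starts of all protein-coding genes H3K27ac covered 35.6% to 38.1% at the start and H3K4me1 11.2% to 15.1%. At 1 kb downstream these ranges were 29.2% to 32.5% and 17.9% to 18.5%, at 2 kb downstream 15.9% to 18.7% and 18.6% to 19.8%, and at 2 kb upstream 8.41% to 10.3% and 7.90% to 7.95%. These shares are descriptions, since the pairs share genes and lists.

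**Figure D3:**
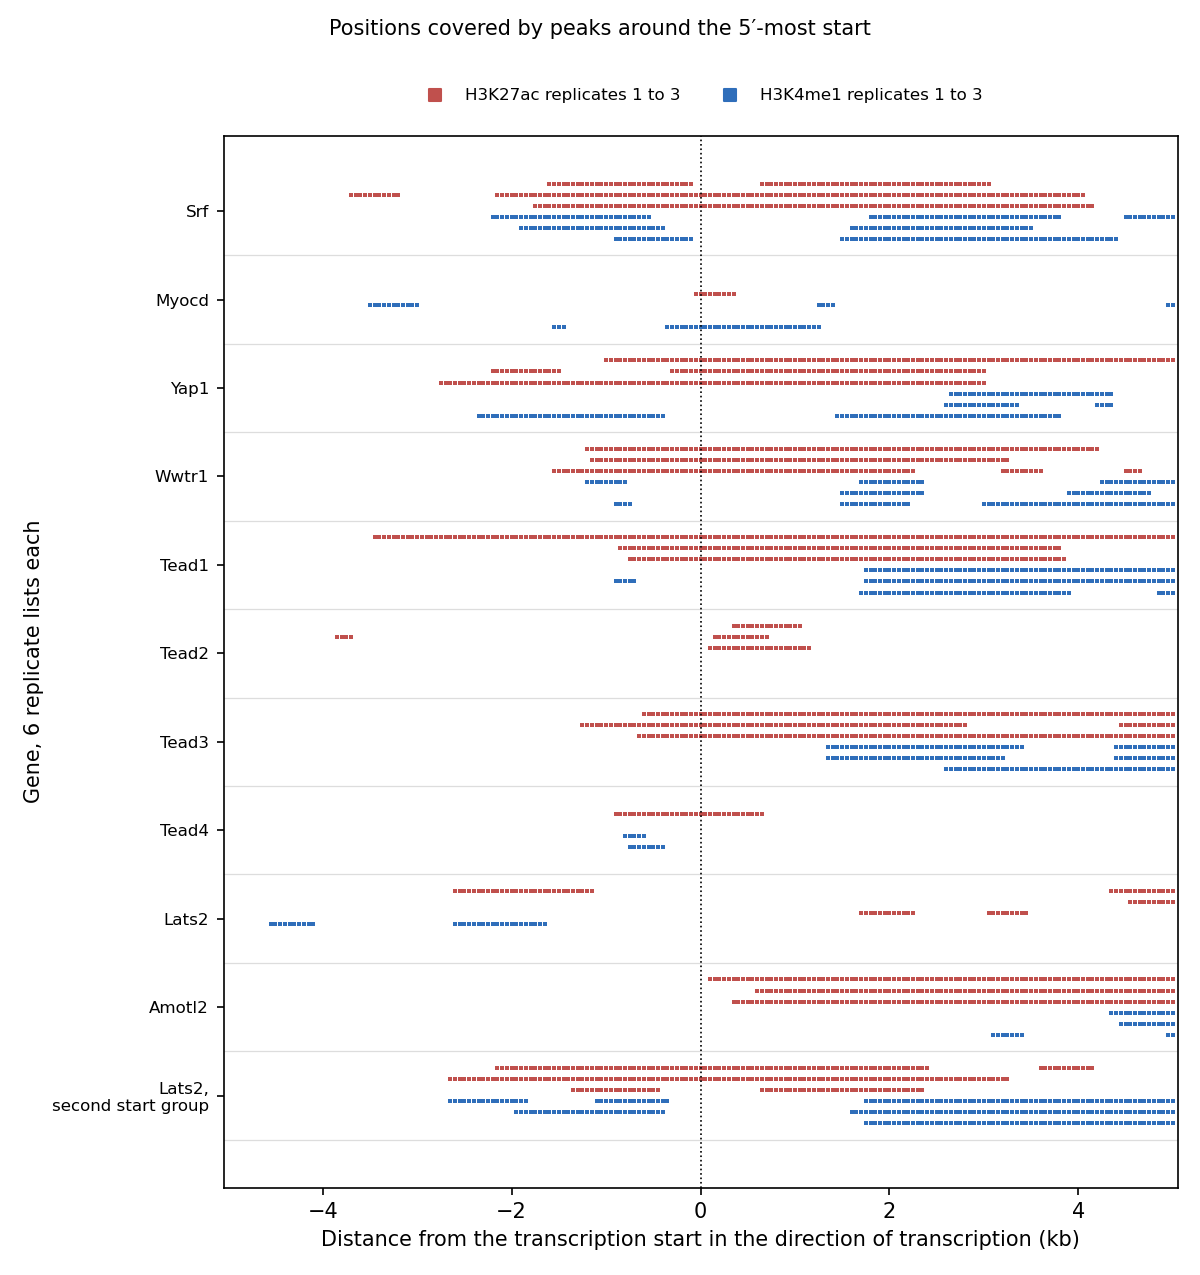
Positions covered by peaks from 5 kb upstream to 5 kb downstream of the 5′-most start of each gene, and of the second start group of Lats2, in kb along the direction of transcription. Each gene has 6 rows, red for H3K27ac and blue for H3K4me1, replicates 1 to 3 from top to bottom. The red rows cross the start in all 3 lists at Yap1, Wwtr1, Tead1 and Tead3, and of the blue rows only that of Myocd replicate 3 does.

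The next question was how much of each locus, promoters included, the marks cover. The median of the 10 loci was 9.03% for H3K27ac and 10.0% for H3K4me1, against 4.97% and 4.45% over all genes. The lists of the marks did not overlap at 3 loci. H3K4me1 was higher at Tead1 and Wwtr1, an order met by 13.2% of all genes, and H3K27ac was higher at Tead3, an order met by 18.3%. For each of the 3 the exact permutation p was 0.1, the smallest possible, and the adjusted p over all genes was 0.317. Outside the promoter windows of each gene, an alternative chosen after seeing the data, Tead1 and Wwtr1 kept this order (15.2% of all genes) and 0 loci had the order of Tead3 (15.7%). The medians of the 10 loci were then 8.02% for H3K27ac and 10.2% for H3K4me1, against 4.40% and 4.25% over all genes. The count of loci without overlap, promoters included, was 6 without H3K27ac replicate 1 and 5 without H3K4me1 replicate 3, where 41.6% and 42.4% of all genes did not overlap, against 31.6% with all lists.

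Tead1 had the widest gap between the marks. H3K27ac covered 8.40%, 6.95% and 11.2% of its locus and H3K4me1 covered 19.2%, 15.8% and 21.0%. The lowest H3K4me1 list was above the highest H3K27ac list. The means were 8.85% ± 2.16 and 18.7% ± 2.64 (SD, n = 3), a difference of -9.84 percentage points, H3K27ac minus H3K4me1. It was -10.6 between lists sharing IgG 2 and -9.85 between those sharing IgG 3. It remained below 0 under all 14 alternatives run, from -23.0 in the pooled lists to -4.92 with the p-value filter. The mean H3K4me1 coverage stood at percentile 94.7 of all genes and the mean H3K27ac coverage at percentile 71.5. The gap lay inside the gene, where H3K27ac covered 7.89% to 13.3% of the intragenic sequence and H3K4me1 covered 21.3% to 27.8%, while the flanks had 3.77% and 3.86%. The number of intragenic peaks was 15 to 22 for H3K27ac and 31 to 39 for H3K4me1.

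Wwtr1 was covered widely by both marks. The H3K27ac lists had 15.4%, 13.9% and 13.7% of the locus and the H3K4me1 lists 16.9%, 18.0% and 18.3%. The spread within each mark was small, with means of 14.3% ± 0.922 and 17.7% ± 0.756 (SD, n = 3). The difference was -3.39 percentage points, and -3.50 and -4.61 between lists sharing an IgG library. It was -14.2 in the pooled lists and turned to 1.64 with the p-value filter. The means stood at percentiles 89.0 and 93.8 of all genes. At Tead3 the order was the other way, with 12.2%, 12.2% and 13.6% for H3K27ac and 9.34%, 9.75% and 12.0% for H3K4me1. The difference of 2.30 percentage points (2.65 and 1.59 within an IgG library) turned to -0.600 with flanks of 100 kb and to -2.25 in the pooled lists. It came mostly from the promoter described above, and outside the promoter windows it was 0.510 percentage points, with overlapping lists (exact permutation p = 0.6). Inside the Tead3 gene H3K27ac covered 33.5% and H3K4me1 39.2% on average.

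At the other 7 loci the marks overlapped over the locus as a whole. Lats2 was widely covered, at 14.4% ± 0.920 by H3K27ac and 16.1% ± 1.89 by H3K4me1 (SD, n = 3), percentiles 89.1 and 91.8. Amotl2 had 11.8% ± 2.36 and 9.65% ± 4.06, a difference that moved from 2.17 to 0.351 percentage points without H3K4me1 replicate 3 and to 4.35 without H3K4me1 replicate 1. The means were 9.22% ± 2.49 and 8.74% ± 3.21 at Srf and 8.84% ± 2.25 and 12.2% ± 2.22 at Yap1 (SD, n = 3). From the replicate means to the pooled lists the difference moved from -3.31 to -12.0 percentage points at Yap1 and from -1.73 to -6.63 at Lats2. Outside the promoter windows the difference turned at Srf, from 0.477 to -0.287 percentage points, and at Amotl2, from 2.17 to -1.33. Inside the Yap1 gene H3K27ac covered 5.08% to 15.5% and H3K4me1 18.0% to 31.2%. Inside Lats2 these ranges were 11.9% to 14.8% and 22.5% to 29.8%, and in its flanks 11.7% to 15.5% and 8.96% to 11.4%. The share of all genes with such ranges was not computed. Tead2 and Tead4 were the least covered, at 1.57% ± 0.853 and 1.34% ± 0.783 by H3K27ac and at 1.60% ± 0.540 and 2.78% ± 1.71 by H3K4me1 (SD, n = 3). In H3K27ac they stood at percentiles 26.1 and 24.1 of all genes. No replicate list had a peak in the Tead2 gene body outside its promoter windows.

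Some of the flanking peaks lie at the promoters of other genes. Amotl2 has no other protein-coding gene within 50 kb, and Tead2 has 8. Of the flanking peaks around Tead3, 46.7% of the H3K27ac and 35.0% of the H3K4me1 peaks lay at other promoters, those of Fance and Rpl10a, each in all 6 lists. The promoters of Cul9 beside Srf and Xpo4 beside Lats2 also had peaks in all 6 lists. That of Sap18 beside Lats2 had H3K27ac in 3 lists and H3K4me1 in 2, as had Cfap300 beside Yap1, and Tm4sf4 beside Wwtr1 had 2 and 3. Rassf10 beside Tead1 had 1 list of each mark. Around Myocd the promoters of Arhgap44 and 1700086D15Rik had H3K27ac in 1 list, and around Tead2 those of Ccdc155, Dkkl1 and Slc6a16 had peaks of a mark in at most 2 lists. Over all 10 loci 7 to 12 flanking peaks per replicate list lay at another gene's promoter.

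Regions with both marks away from promoters, often taken as candidate active enhancers, were then counted. A region was an unbroken stretch covered by at least 2 of the 3 H3K27ac lists that did not touch the promoter window of any protein-coding gene, so that stretches running out of a promoter were left out whole. It had both marks when it overlapped such a region of H3K4me1. The 10 loci held 60 H3K27ac regions, of which 44 (73.3%) had both marks, against 39000 of 63580 (61.3%) in the genome. Of the 44, 25 were intragenic and 19 flanking, and 15 met a peak in all 6 lists. Tead1 had 12, Wwtr1 11, Srf and Amotl2 5 each, Yap1, Tead3 and Lats2 3 each, Myocd and Tead4 1 each and Tead2 0. Per 100 kb this was 4.99 at Wwtr1, 4.64 at Srf, 4.28 at Amotl2 and 3.66 at Tead1, with a median of 0.797 over all genes. These 4 loci stood at percentiles 85.4 to 91.6 of all genes, while Myocd, Tead4 and Tead2 stood at 45.0, 45.4 and 21.6. The median of the 10 was 2.15 per 100 kb. The total of 44 was 29 without H3K27ac replicate 1, 25 without H3K27ac replicate 2 and 14 with the p-value filter.

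The regions of Tead1 were all inside the gene and fell into 2 stretches. By the distance from the 5′-most start to their near edge, 7 lay 5.80 to 39.5 kb downstream and 5 lay 127 to 145 kb downstream, and 3 of each stretch met peaks in all 6 lists. At Wwtr1 5 regions were intragenic, 62.9 to 103 kb from the start, and 4 of them met peaks in all 6 lists. The other 6 were flanking, and 2 of these lay within Tm4sf4. The 3 regions of Yap1 were intragenic, 35.0 to 41.9 kb from the 5′-most start. All 5 regions counted for Srf were 37.1 to 47.0 kb upstream of it and inside Ptk7, and the single region counted for Myocd was inside Arhgap44 and 1700086D15Rik. The sequence inside Srf was under both marks, as its intragenic coverage of 43.1% to 65.1% for H3K27ac and 40.5% to 55.7% for H3K4me1 shows. The H3K27ac stretch there touches a promoter window of Srf and was not counted as a region. H3K4me1 replicates 1 and 2 each had 1 peak inside the gene that touched no promoter window of Srf. Of the regions of Lats2, 2 were intragenic and 1 was inside Xpo4. The single region of Tead4 was flanking, 99.4 kb from the start, and those of Amotl2 reached from 8.19 to 62.2 kb.

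**Figure D4:**
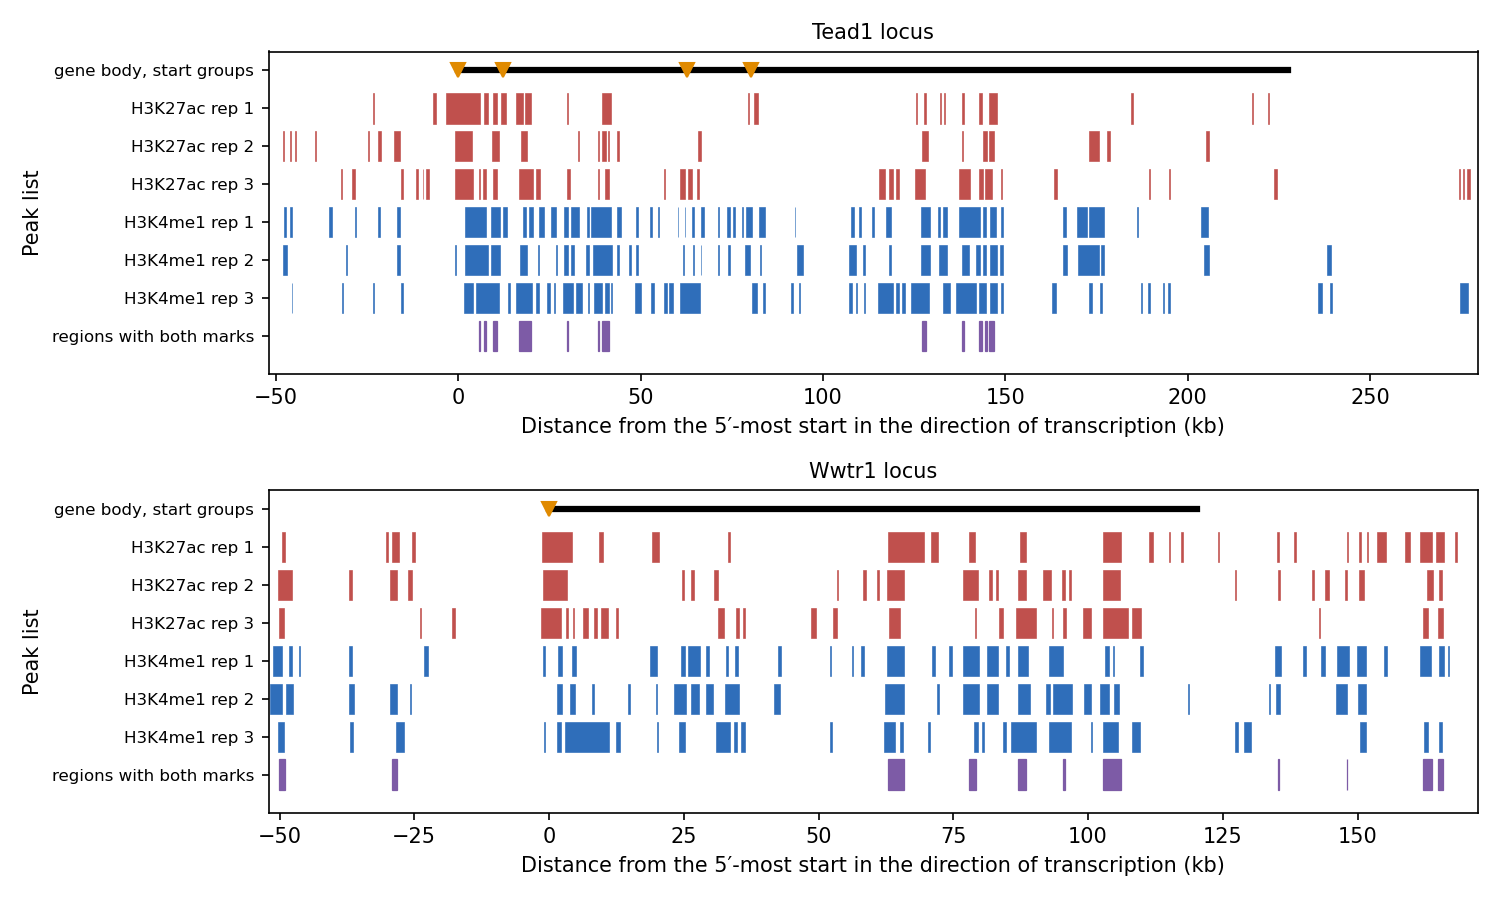
Peaks of the 6 replicate lists along the Tead1 (top) and Wwtr1 (bottom) genes with 50 kb on either side, against the distance from the 5′-most start in kb. The black line is the gene body, orange marks are groups of starts, red and blue bars are H3K27ac and H3K4me1 peaks and purple bars are regions with both marks away from promoters. The 12 purple regions of Tead1 lie between 5.80 and 147 kb inside the gene, with none between 50 and 100 kb.

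The centre of the longest region with both marks that met all 6 lists is shown for Tead1, Wwtr1 and Yap1, as an example of their intragenic regions. Each is 300 bases of the plus strand with 0 bases of annotated exon, at chr7:112697502-112697801 (Tead1, from the region chr7:112695934-112699368), chr3:57471317-57471616 (Wwtr1, from chr3:57469815-57473117) and chr9:7961331-7961630 (Yap1, from chr9:7960247-7962714).
Tead1: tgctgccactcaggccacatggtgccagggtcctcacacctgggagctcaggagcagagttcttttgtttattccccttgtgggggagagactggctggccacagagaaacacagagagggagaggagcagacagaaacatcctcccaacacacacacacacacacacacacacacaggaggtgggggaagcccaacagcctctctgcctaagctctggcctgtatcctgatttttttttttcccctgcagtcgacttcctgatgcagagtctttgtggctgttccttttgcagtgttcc
Wwtr1: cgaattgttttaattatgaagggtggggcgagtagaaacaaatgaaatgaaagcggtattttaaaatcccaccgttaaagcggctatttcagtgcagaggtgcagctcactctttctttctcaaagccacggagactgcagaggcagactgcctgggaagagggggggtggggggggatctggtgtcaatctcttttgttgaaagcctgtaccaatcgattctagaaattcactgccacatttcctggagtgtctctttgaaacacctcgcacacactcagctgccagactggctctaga
Yap1: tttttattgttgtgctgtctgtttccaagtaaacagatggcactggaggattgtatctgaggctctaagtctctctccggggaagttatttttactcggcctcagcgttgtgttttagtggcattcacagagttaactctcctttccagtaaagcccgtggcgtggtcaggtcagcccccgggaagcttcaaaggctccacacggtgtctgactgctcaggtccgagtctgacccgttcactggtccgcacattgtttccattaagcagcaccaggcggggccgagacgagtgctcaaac

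No capitals are printed because none of the 3 held a CArG box, the hexamer GGAATG on either strand or TGANTCA. The Tead1 stretch was covered 24.7%, 100% and 100% by H3K27ac and 100% by each H3K4me1 list. That of Yap1 was covered 100%, 0% and 100% by H3K27ac and 100% by each H3K4me1 list, and that of Wwtr1 100% by each H3K27ac list and 0%, 0% and 100% by H3K4me1. The regions are 3435, 3303 and 2468 bp long, so that lists which meet a region need not cover its centre. Among the centres of all 44 regions the hexamer was in 3, at Myocd, Yap1 and Amotl2, TGANTCA in 4 and a CArG box in 0. Over the 39000 such regions of the genome these motifs were in 16.8%, 13.5% and 1.86%.

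H3K4me1 regions without H3K27ac were about as frequent at the 10 loci as in the genome. The loci held 136 H3K4me1 regions away from promoters, of which 90 (66.2%) did not overlap an H3K27ac region, against 63.1% in the genome. Tead1 had 42 such H3K4me1 regions, 32 of them (76.2%) without H3K27ac. At Wwtr1 14 of 27 were without it, at Yap1 12 of 15, at Lats2 11 of 14 and at Myocd 8 of 9. At Srf 1 of 7 was without it. Thus Tead1 and Wwtr1 together held 69 of the 136 regions.

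**Figure D5:**
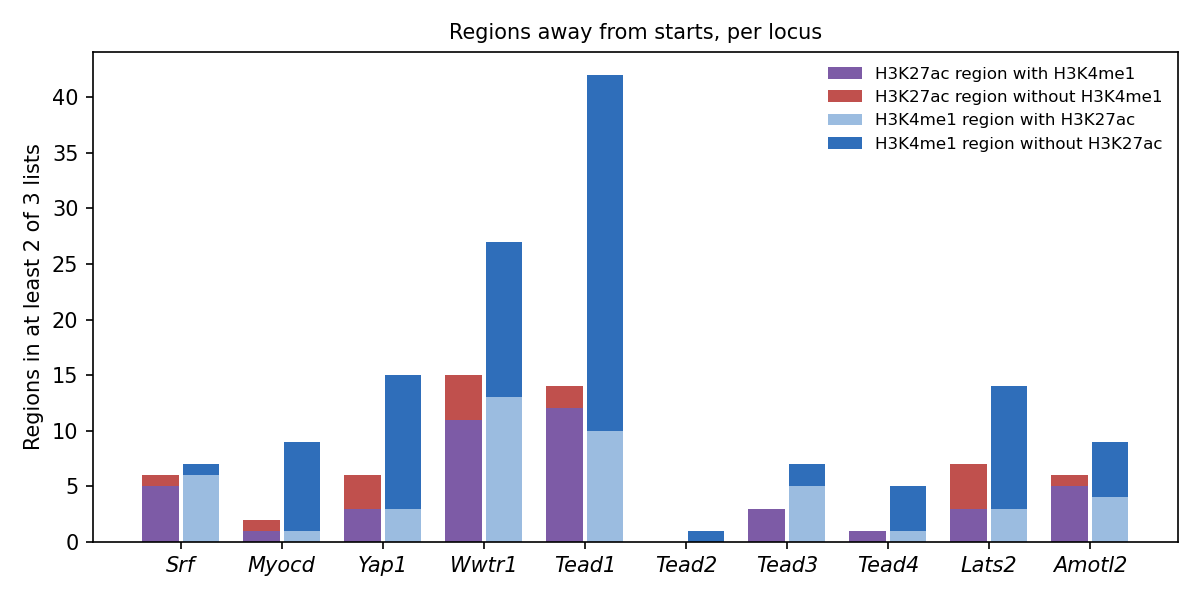
Number of regions away from promoters, each in at least 2 of 3 replicate lists, at the 10 loci. The left bar of each gene counts H3K27ac regions (purple with H3K4me1, red without) and the right bar H3K4me1 regions (light blue with H3K27ac, dark blue without). Tead1 has the tallest bar, with 42 H3K4me1 regions of which 32 lack H3K27ac.

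Other genes of the pathways were counted in lists that were chosen with earlier results known. Among 8 SRF cofactors and partners of the ETS family, all 8 had a promoter H3K27ac peak in all 3 lists and 6 had peaks of both marks in all 6 lists (45.9% and 24.3% of all genes). The 6 were Mrtfa and Mrtfb, coactivators of SRF that respond to actin, the ETS factors Elk1 and Elk4, and the LIM proteins Fhl2 and Csrp2. Thus Mrtfa and Mrtfb were marked where Myocd, of the same coactivator family, was not in most lists. Of 12 Hippo kinases and upstream regulators, 11 had H3K27ac in all 3 lists and 10 had both marks in all 6 lists, namely Lats1, Stk3, Stk4, Mob1a, Mob1b, Nf2, Frmd6, Amot, Amotl1 and Taok1. Wwc1, which encodes the regulator KIBRA, had no promoter peak in any of the 6 lists.

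The counts for target genes were as follows. Of 9 TEAD cofactors and YAP target genes 6 had promoter H3K27ac in all 3 lists, and 2, the cofactor gene Vgll3 and the YAP target Ccn2, had both marks in all 6 lists, while Vgll1 had none. Of all genes 45.9% had the first pattern and 24.3% the second. The Vgll3 locus was covered to 28.7% by H3K27ac and 31.2% by H3K4me1, and the Ccn2 locus to 20.7% and 17.4%. Of 10 SRF target genes 6 had promoter H3K27ac in all 3 lists, and Acta2 (smooth muscle actin), Smtn (smoothelin) and Tpm1 (tropomyosin) had both marks in all 6. Actg2, singled out after its values were seen, had H3K27ac in 1 list and H3K4me1 in 0. The median locus coverage was 11.5% for H3K27ac and 16.1% for H3K4me1 in the SRF cofactors, 6.88% and 11.7% in the Hippo genes, 10.5% and 12.9% in the TEAD and YAP list and 8.65% and 7.58% in the SRF targets. Over all genes these medians were 4.97% and 4.45%.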

How the data were processed

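The series holds ChIC-Seq of primary oviductal muscle cells, 3 samples each for H3K27ac, H3K4me1 and IgG. Per the labels the authors used cutadapt, Bowtie2 and MACS2 on GRCm38.p5; filters on reads are not given in the sources used here. Per the file headers they called broad peaks with MACS 2.2.7.1 on paired ends, with p cutoffs of 0.05 (strong) and 0.1 (weak), scaling the larger library to the depth of the smaller. In the deposited lists the pileup is a coverage signal averaged over a peak, the fold enrichment is a ratio of that signal to the local background after adding 1 to both, and the p-value is given as −log10. These values served only to filter, rank or describe peaks within a list. The IgG libraries held 3110985 to 3713369 fragments, the depth to which each replicate call was scaled.

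Gene models were GENCODE release M21, with 54361 starts of protein-coding transcripts on 19 autosomes, X and Y, and sequence came from the NCBI RefSeq copy of GRCm38.p6, whose 21 chromosomes held all peaks (0 beyond an end). A promoter window is 1 kb either side of a start, and overlap is at least 1 bp. Coverage is the share of bp under the union of a list's peaks. Per gene the marks were compared with a two-sided exact permutation test, which has 20 assignments, adjusted by Benjamini-Hochberg over 21853 genes. A percentile is the rank among all these genes, or among all peaks of a list for fold enrichment. Interval and test functions were tested on simulated data. Python 3.11.15, numpy 2.4.6, pandas 2.3.3 and pysam 0.24.0 were used.

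All 10 members were named. Genes of the other lists were named if a promoter peak was in all 6 replicate lists or in none, and neighbours where a flanking peak lay at their promoter. Printed sequences were 250 bases before the start most lists cover and the central 300 bases of the region with both marks in the most lists, longest first; 1 promoter sequence is not reported here. The AP-1 motif and the second Lats2 start were added after values were seen. The members and lists were chosen with earlier results of these data known. Alternatives were promoter windows of 250 bp and 3 kb, flanks of 10 and 100 kb, starts of all transcripts, peaks at 1.3 or more on the −log10 p scale or pileup of at least 5 times the genome mean, regions in all 3 lists or covered to 50%, pooled lists, differences within an IgG library, loci without promoter windows, a replicate block and each replicate left out.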

Additional observations from a re-analysis of the deposited data

How the results depend on the processing

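Of the recomputed differences of single genes, 19 of 140 for loci and 10 of 130 for promoters turned their direction. All differences are H3K27ac minus H3K4me1 in percentage points. With the p-value filter (1.3 on the −log10 scale) the locus difference turned at Myocd (0.0901), Yap1 (0.527), Wwtr1 (1.64), Tead2 (0.102) and Lats2 (0.663). With flanks of 100 kb it turned at Srf (-0.245), Yap1 (0.537), Tead2 (2.27) and Tead3 (-0.600), in the pooled lists at Tead3 (-2.25) and Amotl2 (-0.102), within an IgG library at Tead2 (0.342), and outside the promoter windows, an alternative chosen after seeing the data, at Srf (-0.287) and Amotl2 (-1.33). Leaving out 1 replicate at a time gave -1.31 to 1.80 at Srf and -0.519 to 0.263 at Tead2, and at Amotl2, without a turn, 0.351 to 4.35. At promoters the difference turned for Tead4 with windows of 250 bp (9.02) and within an IgG library (1.3), for Tead1 (-1.10) and Lats2 (-2.61) with windows of 3 kb, for Tead1 (-47.3) and Lats2 (-2.15) in the pooled lists, an alternative chosen after seeing the data, and with a replicate left out it ranged from -17.9 to 1.69 at Tead4 and from -9.23 to 2.51 at Myocd. With the p-value filter the promoter differences of Myocd and Tead4 were 0. The cause was not tested. Locus differences of Tead1 and Tead4, and promoter differences of Srf, Yap1, Wwtr1, Tead2, Tead3 and Amotl2, kept their sign under all alternatives run.

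The count of genes with promoter peaks in all 3 lists changed by over 1.5 times for H3K4me1 (6) and both marks (5). It was 2 and 2 with windows of 250 bp (12.5% and 10.1% of all genes) and 1 and 1 with the p-value filter, and that for both marks was 8 with windows of 3 kb (35.5%) and 8 in the pooled lists (50.5%). The 3 loci at which the marks did not overlap (31.6% of all genes) became 5 with pileup of at least 5 times the genome mean (36.4%), 6 with flanks of 10 kb (26.7%) and 3 to 6 with a replicate left out (35.4% to 42.4%). The 44 regions with both marks became 18 when regions had to be in all 3 lists, 25 with flanks of 10 kb, 73 with flanks of 100 kb, 14 with the p-value filter and 25 to 38 with a replicate left out.

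Replicate numbers were not taken as pairs. Over the genes, the deviations of same-numbered lists of the 2 marks had r of -0.0881, 0.319 and 0.468, of which the last 2 share an IgG library; H3K27ac replicate 2 and H3K4me1 replicate 1, which also share one, had 0.354, and the other pairs had -0.496 to 0.0716. With a replicate block, 6 loci (49.1% of all genes) and 8 promoters (35.2%) had a difference of the same sign in every number, a weaker condition than no overlap, and the smallest p of its 8 sign flips is 0.25. No alternative varied the depth of the IgG libraries.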
